A study of Homo sapiens with 6 samples.

Results

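The NRF2-KEAP1 axis, the main transcriptional switch against oxidative and electrophilic stress, was followed through 10 genes: NFE2L2, KEAP1, NQO1, GCLC, GCLM, TXNRD1, SRXN1, SLC7A11, ME1 and HMOX1. They were chosen by gene symbol, and each symbol matched 1 of the 60624 Ensembl genes of the deposited table. Levels were measured in TPM, a length-normalised share of transcripts, and all 10 passed the filter of a mean TPM of 1, which left 14778 genes to test, and the lowest member value in any library was 47.1 TPM. The RNA came from A549, an established human lung adenocarcinoma cell line. A group of 3 samples, siCTR, had received a control small interfering RNA (siRNA), and another 3, siCEP20, an siRNA against the centrosomal protein gene CEP20, each for 3 days. A label field shared by all 6 samples names a plasmid transfection. The methods list a pair of CEP20 siRNAs, and the labels do not say which was used for sequencing or whether replicates were separate cultures, so p-values measure only the spread between these samples.

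NFE2L2 encodes NRF2, a transcription factor that pairs with small MAF proteins and binds the antioxidant response element of its target genes. KEAP1 holds NRF2 in the cytoplasm and presents it to a CUL3 ubiquitin ligase for breakdown, and oxidants that modify KEAP1 let NRF2 escape. A549 cells are known to carry an inactivating KEAP1 mutation and to keep NRF2 targets at a high level without added stress. This control acts largely on NRF2 protein, which RNA levels do not measure.

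The antioxidant response element was sought in promoter sequences from RefSeq (GRCh38.p14), which cover 250 bases before and 50 after a gene's start and were found for 8 of the 10 members, without SLC7A11 and HMOX1. The core searched was TGACNNNGC on both strands. It was present in the promoters of GCLM, ME1, TXNRD1 and KEAP1, which is 4 of 8 members with a promoter, against 19.5% of the 10511 tested genes with a promoter and 13.35% of all 35116 promoters in the set. Some matches are shown to let the cores be compared, with the core in capitals, each read along the gene's own strand:

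GCLM (chr1:93909446-93909474, minus strand): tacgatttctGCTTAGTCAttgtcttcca

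KEAP1 (chr19:10502784-10502812, minus strand): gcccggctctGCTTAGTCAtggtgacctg

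ME1 (chr6:83431170-83431198, minus strand): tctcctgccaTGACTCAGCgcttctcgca

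TXNRD1 (chr12:104215670-104215698, plus strand): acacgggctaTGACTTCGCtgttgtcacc

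GCLM and KEAP1 held the same 9 bases, TGACTAAGC when read on the opposite strand. The core in ME1, which starts 137 bases before the start site, also contains TGACTCA, the site of AP-1 factors. A match is a description of the letters and not evidence of binding, and the windows of the other members say nothing about elements farther away.

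The knockdown was visible in the targeted gene. CEP20 was at 29.2, 30.5 and 35.1 TPM in siCTR and at 16.2, 15.3 and 17.3 TPM in siCEP20 samples, with a log2 fold change of -0.92 (limma adjusted p = 0.000205, by the Benjamini-Hochberg method). TPM keeps no sequencing depth, so the error of each value comes from 3 replicates per group. Across the tested genes the log2 fold changes had a median of 0.13, which median-of-ratios scaling brought to 9.42e-05, so each member is also given relative to that median. Of the genes past the adjusted p, 69.6% were higher with unscaled values and 48.2% with median-of-ratios scaling. The epithelial keratins KRT8 and KRT18 were abundant in every library, while EPCAM was between 0.834 and 3.85 TPM and the alveolar type II markers SFTPC, SFTPB, SFTPA1 and NKX2-1 were at or near 0. The summed TPM of 5 epithelial markers was 3230 to 3300 in siCTR and 4187 to 4368 in siCEP20 libraries. Of 4 fibroblast markers, COL1A2 and DCN were listed at 0 in every library and COL1A1 was at 5.27 to 5.90 in siCTR and 17.5 to 19.6 TPM in siCEP20 libraries. Immune markers summed to 9.29 to 11.9 TPM in siCTR and 9.19 to 10.8 TPM in siCEP20 libraries. Most of that sum was CD14, at 7.34 to 10.9 TPM in siCTR and 7.20 to 8.84 TPM in siCEP20 libraries. CD79A was at 0.966 to 1.96 TPM in siCTR and 1.92 to 2.64 TPM in siCEP20 libraries. CD3E was at 0 in every library and PTPRC above 0 in 1, and endothelial markers stayed at or under 0.109 TPM. The part of these differences in the member results was not tested.

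After knockdown of CEP20 the members differed in direction. With unscaled TPM, NFE2L2, ME1 and SLC7A11 rose, SRXN1, GCLC and NQO1 fell, and KEAP1, TXNRD1, HMOX1 and GCLM did not pass the test. At an adjusted p under 0.05, 3 of 10 members were thus higher, where 30.2% of all tested genes were, and 3 of 10 lower, where 13.2% were. With median-of-ratios scaling 2 members were higher and 6 lower, where 20.1% and 21.6% of all tested genes were. A correction of each library for length and GC of the transcripts gave 2 and 6 as well, where 20.0% and 21.2% were. Quantile normalization gave 3 higher and 2 lower, where 21.4% and 19.9% of all tested genes were. With a fold change over 1.5 or under 0.67 added, only NFE2L2 was called higher (11.2% of all tested genes) and 0 members were called lower (4.61% of all), while limma gave 3 lower members at an unadjusted p under 0.05. With the fold threshold 0 members were higher under median-of-ratios scaling, quantile normalization and the length and GC correction. The count was also 0 without siCEP20 replicate 3 or siCTR replicate 1, and 2 without siCEP20 replicate 1 or siCTR replicate 3. For these fits, and for the unadjusted p, the share of all tested genes was not counted. With unscaled TPM, the siCEP20 values lay all above the siCTR values for 3 members (38.4% of all tested genes). They lay all below for 4 (17.0% of all). Under median-of-ratios scaling 2 members lay all above and 6 all below, and under the length and GC correction 2 and 7. Under quantile normalization 3 lay all above and 3 all below. The share of all tested genes was not counted under these scalings, so the 17.0% does not apply there. The median log2 fold change of the members was -0.05 with a range from -0.35 to 0.61, against 0.13 for all tested genes. These shares describe 10 genes chosen with earlier results of these data known, and no test was made of the list.

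**Figure D1:**
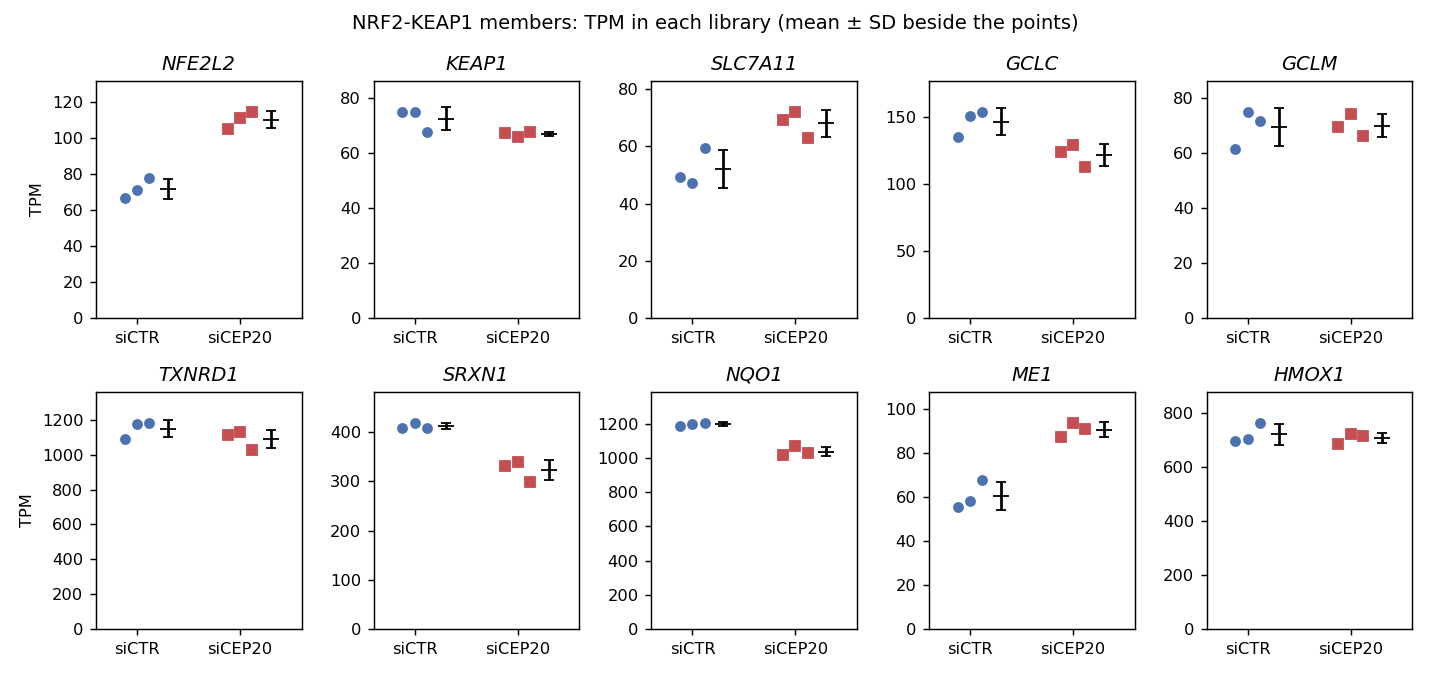
TPM of each member (vertical axis, from 0) in the 3 siCTR (blue circles) and 3 siCEP20 libraries (red squares), with the mean ± SD of each group beside the points. NFE2L2, ME1 and SLC7A11 lie higher in every siCEP20 library, KEAP1, GCLC, SRXN1 and NQO1 lower, and the groups overlap for GCLM, TXNRD1 and HMOX1.

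Among the regulators, NFE2L2 rose and KEAP1 did not pass the test. NFE2L2 (ENSG00000116044, chromosome 2 from 177218667 to 177392756 of hg38, minus strand) was at 66.9, 71.1 and 77.8 TPM in siCTR and at 105, 111 and 115 TPM in siCEP20 samples. Every siCEP20 value lay above every siCTR value, and the means differed by more than the spread in either group (71.9 ± 5.50 against 110.3 ± 4.83 TPM, SD, n = 3 each). The log2 fold change was 0.61 (standard error, SE, 0.0716, limma adjusted p = 0.000417), or 0.48 relative to all tested genes. The gene span in the annotation overlaps HNRNPA3 and AGPS on the opposite strand, but their exons share 0 bases with those of the canonical NFE2L2 transcript. NFE2L2 was higher and past the adjusted p in all 15 alternatives, with log2 fold changes from 0.46 to 0.67.

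KEAP1 (ENSG00000079999, chromosome 19 from 10486125 to 10503558, minus strand) was at 74.9, 75.1 and 67.8 TPM in siCTR and at 67.3, 66.1 and 67.6 TPM in siCEP20 samples. The siCEP20 values were tightly grouped and just below the lowest siCTR value. The log2 fold change of -0.11 (95% confidence interval -0.26 to 0.03) did not pass (limma adjusted p = 0.18) and was -0.24 relative to all tested genes, while median-of-ratios scaling gave -0.26 (adjusted p = 0.0247) and the length and GC correction -0.23 (adjusted p = 0.021).

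In glutathione synthesis the transporter rose, the catalytic subunit fell and the modifier subunit showed no detectable change. SLC7A11 encodes the xCT subunit of the cystine-glutamate exchanger, which brings in cystine, a source of the cysteine that glutathione is made from. SLC7A11 (ENSG00000151012, chromosome 4 from 138164097 to 138242349, minus strand) was at 49.3, 47.1 and 59.6 TPM in siCTR and at 69.1, 72.03 and 62.9 TPM in siCEP20 samples. The groups were separate but close, since the highest siCTR value lay just under the lowest siCEP20 value. The log2 fold change was 0.39 (SE 0.0978, limma adjusted p = 0.0138), or 0.25 relative to all tested genes. SLC7A11 lost the call with median-of-ratios scaling (0.24, adjusted p = 0.0632), with the length and GC correction (0.12, adjusted p = 0.245), without a filter on low TPM (adjusted p = 0.0577) and without siCEP20 replicate 2 (adjusted p = 0.0521). Its exons share 865 bases with SLC7A11-AS1 on the opposite strand, whose mean was 1.69 TPM.

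GCLC and GCLM encode the catalytic and the modifier subunit of glutamate-cysteine ligase, the rate-limiting enzyme of glutathione synthesis. GCLC (ENSG00000001084, chromosome 6 from 53497341 to 53616970, minus strand) was at 135, 151 and 154 TPM in siCTR and at 124, 129 and 113 TPM in siCEP20 samples. All siCEP20 values were lower, with a log2 fold change of -0.27 (SE 0.0736, limma adjusted p = 0.0201), or -0.40 relative to all tested genes. The direction was the same in all 15 alternatives, though the filters, the trend, the gene setting and the replicate block leave the fold change itself unaltered. The adjusted p was 0.0654 without siCTR replicate 2, 0.0607 without siCTR replicate 3 and 0.0645 without siCEP20 replicate 3. It was 0.062 without a filter on low TPM and 0.0501 without a trend. GCLM (ENSG00000023909, chromosome 1 from 93885199 to 93909456, minus strand) was at 61.6, 74.8 and 71.4 TPM in siCTR and at 69.5, 74.3 and 65.9 TPM in siCEP20 samples. Its groups overlapped, and the log2 fold change of 0.02 had a 95% confidence interval from -0.18 to 0.21 (limma adjusted p = 0.898) and was -0.12 relative to all tested genes. The sign of the GCLM change turned with the scaling, to -0.13 with the median of ratios and to -0.21 (adjusted p = 0.0231) with the length and GC correction, and it was -0.07 without siCTR replicate 1 and -0.03 without siCEP20 replicate 2.

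In the thioredoxin system SRXN1 fell and TXNRD1 did not pass the test. SRXN1 encodes sulfiredoxin, which reduces over-oxidised peroxiredoxins. SRXN1 (ENSG00000271303, chromosome 20 from 646615 to 653200, minus strand) was at 409, 419 and 409 TPM in siCTR and at 330, 339 and 300 TPM in siCEP20 samples. The siCTR libraries were nearly alike (412 ± 5.90 TPM), all above the siCEP20 libraries (323 ± 20.9 TPM, SD, n = 3 each). The log2 fold change was -0.35 (SE 0.0579, limma adjusted p = 0.00194), or -0.49 relative to all tested genes, and SRXN1 was lower and past the adjusted p in all 15 alternatives. TXNRD1, cytosolic thioredoxin reductase (ENSG00000198431, chromosome 12 from 104215779 to 104350307, plus strand), was at 1092, 1175 and 1185 TPM in siCTR and at 1113, 1131 and 1030 TPM in siCEP20 samples. The groups overlapped, and the log2 fold change was -0.08 (95% confidence interval -0.20 to 0.05, limma adjusted p = 0.296), or -0.21 relative to all tested genes. With median-of-ratios scaling it was -0.23 (adjusted p = 0.00845), with the length and GC correction -0.27 (adjusted p = 0.00284) and with quantile normalization 0.12 (adjusted p = 0.131), so the direction of TXNRD1 depended on the scaling. The pseudogene RPL18AP3 (mean 200 TPM) lies within the TXNRD1 span on the same strand but shares 0 exon bases with its canonical transcript.

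The quinone reductase gene and the malic enzyme gene moved in opposite directions. NQO1 encodes an enzyme that reduces quinones by a pair of electrons and is the standard readout of NRF2 activity. NQO1 (ENSG00000181019, chromosome 16 from 69706996 to 69726668, minus strand) was the most abundant member in siCTR samples, at 1187, 1201 and 1207 TPM, and was at 1018, 1068 and 1027 TPM in siCEP20 samples. The siCTR values were close together, and all siCEP20 values were lower. The log2 fold change was -0.21 (SE 0.0426, limma adjusted p = 0.0055), or -0.34 relative to all tested genes. Quantile normalization brought the NQO1 change to -0.0019 (adjusted p = 0.974), and the call was kept in the other 14 alternatives.

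ME1, cytosolic malic enzyme, makes NADPH while turning malate into pyruvate. ME1 (ENSG00000065833, chromosome 6 from 83210402 to 83431051, minus strand) was at 55.5, 57.9 and 67.5 TPM in siCTR and at 87.0, 93.6 and 90.9 TPM in siCEP20 samples. The siCEP20 values were higher by more than the range within either group. The log2 fold change was 0.58 (SE 0.0819, limma adjusted p = 0.000944), or 0.45 relative to all tested genes. Its fold of 1.498 lay just under the fold threshold, which it crossed with a pseudocount of 0.1. ME1 was higher and past the adjusted p in all 15 alternatives, from 0.41 to 0.67.

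HMOX1 encodes heme oxygenase 1, which breaks heme down to biliverdin, iron and carbon monoxide. HMOX1 (ENSG00000100292, chromosome 22 from 35380361 to 35394214, plus strand) was at 696, 703 and 765 TPM in siCTR and at 686, 722 and 714 TPM in siCEP20 samples. The groups overlapped, and the log2 fold change of -0.03 had a 95% confidence interval from -0.15 to 0.10 (limma adjusted p = 0.71) and was -0.16 relative to all tested genes. HMOX1 was lower with median-of-ratios scaling (-0.18, adjusted p = 0.0146), while the change was 0.0069 (adjusted p = 0.914) with quantile normalization and 0.02 without siCTR replicate 3.

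**Figure D2:**
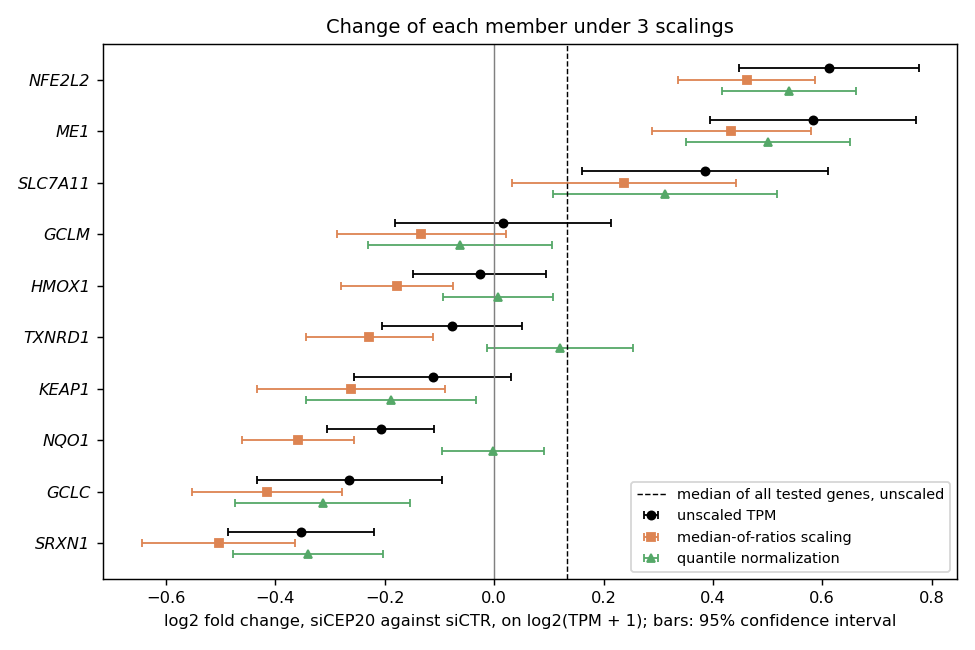
Log2 fold change of each member (horizontal axis, siCEP20 against siCTR on log2(TPM + 1), bars giving the 95% confidence interval of the limma fit) with unscaled TPM (black circles), median-of-ratios scaling (orange squares) and quantile normalization (green triangles). NFE2L2 and ME1 stay above 0 and SRXN1 and GCLC below 0 under each, NQO1 moves to about 0 with quantile normalization, and TXNRD1 changes side; the dashed line marks 0.13, the median of all tested genes with unscaled TPM.

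TPM is divided by transcript length, so levels can also be compared between members. In siCTR samples the order from high to low was NQO1, TXNRD1, HMOX1, SRXN1, GCLC, KEAP1, NFE2L2, GCLM, ME1 and SLC7A11. The first 5 were each separate from the next, whereas neighbours from KEAP1 down to SLC7A11 overlapped in range. NQO1 exceeded 99.2% of all tested genes in mean siCTR level and SLC7A11, the lowest member, 78.5%. In siCEP20 samples NQO1 and TXNRD1 overlapped, NFE2L2 reached the range of GCLC, and KEAP1 became the lowest, overlapping SLC7A11. The 8 targets summed to 3686, 3829 and 3918 TPM in siCTR and to 3497, 3629 and 3403 TPM in siCEP20 libraries with unscaled TPM. NQO1, TXNRD1 and HMOX1 make up most of that sum, and with quantile normalization their log2 fold changes were -0.0019, 0.12 and 0.0069, so the difference in the sum depends on the scaling. Over the 10 members, the SD within a group lay between 0.844% and 12.8% of the mean.

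Ratios of members to a partner within the same library do not depend on a single scale factor per library. They can depend on quantile normalization and on the length and GC correction, which shift genes of a library differently. No ratio was computed under these. With unscaled TPM, 5 ratios were compared with a two-sided exact permutation test, whose smallest possible p is 0.1 for 3 samples against 3. The NFE2L2 to KEAP1 ratio, of the factor to its inhibitor, was 0.893, 0.948 and 1.147 in siCTR and 1.56, 1.69 and 1.69 in siCEP20 samples, a log2 difference of 0.73 (SE 0.115). The GCLC to GCLM ratio, of catalytic to modifier subunit, was 2.20, 2.01 and 2.15 in siCTR and 1.78, 1.73 and 1.71 in siCEP20 samples, a log2 difference of -0.28 (SE 0.0414). The SLC7A11 to SLC3A2 ratio, of the light to the heavy chain of the cystine exchanger, was 0.0425, 0.0429 and 0.055 in siCTR and 0.0987, 0.0956 and 0.0841 in siCEP20 samples. This ratio differed most of the 5, with a log2 difference of 0.99 (SE 0.141). Both genes took part, with log2 fold changes of 0.39 for SLC7A11 and -0.60 for SLC3A2. SLC3A2 fell from 1114 ± 41.5 to 734 ± 29.2 TPM (SD, n = 3 each). SLC3A2 also serves other amino acid transporters.

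The TXNRD1 to TXNRD2 ratio, of cytosolic to mitochondrial thioredoxin reductase, was 35.9 ± 1.04 in siCTR and 45.9 ± 3.64 in siCEP20 samples (SD, n = 3 each, log2 difference 0.35, SE 0.0717), with separate groups. TXNRD2 itself fell from 32.1 ± 1.89 to 23.8 ± 0.904 TPM (log2 fold change -0.41, limma adjusted p = 0.00287). With quantile normalization the log2 fold changes were 0.12 for TXNRD1 and -0.55 for TXNRD2. With the length and GC correction they were -0.27 and -0.48. The groups of these 4 ratios did not overlap, and each had the smallest possible p of 0.1 (adjusted p = 0.125 over the 5, exact permutation test), which cannot pass 0.05 in this design. The HMOX1 to HMOX2 ratio, of the inducible to the constitutive heme oxygenase, overlapped between groups, at 14.5 ± 0.825 and 14.1 ± 0.303 (exact permutation p = 0.5, adjusted p = 0.5).

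**Figure D3:**
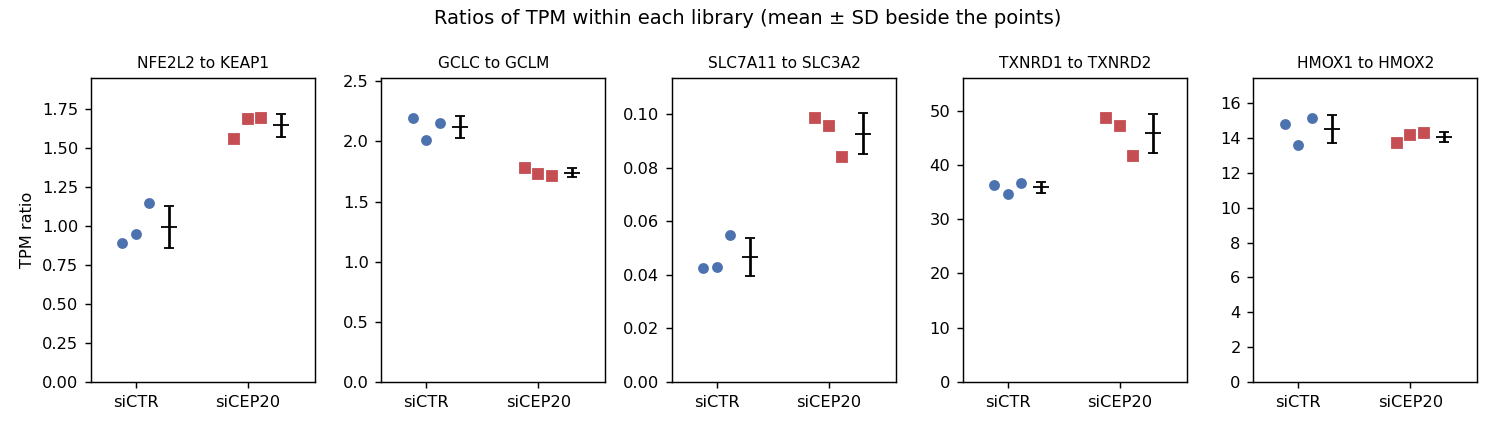
TPM ratio of 5 gene pairs in each library (vertical axis from 0; blue circles siCTR, red squares siCEP20), with the mean ± SD of each group beside the points. The siCEP20 values lie all above the siCTR values for NFE2L2 to KEAP1, SLC7A11 to SLC3A2 and TXNRD1 to TXNRD2, all below for GCLC to GCLM, and overlap for HMOX1 to HMOX2.

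The other genes of the pathway were taken from 3 lists written by hand, with earlier results of these data known. Their shares are thus a description and not a test. The KEAP1-NRF2 control list held 21 genes for the ubiquitin ligases, partners, competitors and relatives of NRF2, of which 20 were tested. Of these, 8 passed as higher and 4 as lower, or 40% and 20% against the 30.2% and 13.2% of all tested genes, with a median log2 fold change of -0.03. With median-of-ratios scaling the counts were 4 higher and 10 lower, beside 20.1% and 21.6% of all tested genes. SQSTM1 encodes p62, which binds KEAP1 and takes it to autophagy, and fell from 2823 ± 80.2 to 1898 ± 50.5 TPM (log2 fold change -0.57, limma adjusted p = 7.42e-05). RBX1, the RING subunit of the CUL3 ligase, fell from 53.1 ± 2.30 to 32.7 ± 1.31 TPM (-0.68, adjusted p = 0.000189). CREBBP, an acetyltransferase that NRF2 recruits as coactivator, rose from 16.6 ± 0.848 to 27.8 ± 1.14 TPM (0.71, adjusted p = 0.000261). SKP1, the second most abundant of the list and a subunit of the ligase that takes phosphorylated NRF2, was at 372 ± 19.7 and 335 ± 6.67 TPM and did not pass (-0.15, adjusted p = 0.0566). SKP1 passed as lower with median-of-ratios scaling (-0.30, adjusted p = 0.00252), quantile normalization (-0.14, adjusted p = 0.0492) and the length and GC correction (-0.41, adjusted p = 0.00106).

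The list of other NRF2 targets held 34 genes, of which 33 were tested. In this list 8 passed as higher and 13 as lower, or 24.2% and 39.4% beside the 30.2% and 13.2% of all tested genes, and the list median was -0.08 on the log2 scale, which is -0.21 relative to all tested genes. Without a trend in limma's variance or without a filter on low TPM 5 were higher, where 29.3% and 12.4% of all tested genes were, and with median-of-ratios scaling, which called 20.1% of all tested genes higher, 2 were. ALDH3A1, an aldehyde dehydrogenase, had the largest change of the list and fell from 1377 ± 67.0 to 724.5 ± 22.6 TPM (log2 fold change -0.93, limma adjusted p = 3.12e-05). PRDX1, a cytosolic peroxiredoxin, fell from 1585 ± 104 to 981 ± 29.2 TPM (-0.69, adjusted p = 9.34e-05). BLVRB, a biliverdin reductase, fell from 589 ± 31.0 to 386 ± 9.62 TPM (-0.61, adjusted p = 0.000123). The ferritin chains FTH1 and FTL were the most abundant, and their calls depended on the scaling. FTH1 rose from 22904 ± 478 to 26894 ± 1797 TPM (0.23, adjusted p = 0.0105), with 0.08 under median-of-ratios scaling (adjusted p = 0.357). FTL was at 20654 ± 627 and 22486 ± 920 TPM (0.12, adjusted p = 0.0663) and at -0.03 under that scaling, and both are 0 under quantile normalization, where both stand among the highest ranks in the 2 groups alike. With the length and GC correction both passed as higher, FTH1 at 0.23 (adjusted p = 0.00743) and FTL at 0.19 (adjusted p = 0.00793).

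The list of other antioxidant enzymes held 35 genes, of which 34 matched a row and 32 were tested. Its name is loose, since SLC3A2, TXNIP, CHAC1 and CHAC2 stand in it and are not antioxidant enzymes themselves. SLC3A2, CHAC1 and CHAC2 are counted among its lower genes. Here 3 passed as higher and 14 as lower, or 9.38% and 43.8% beside the 30.2% and 13.2% of all tested genes, and the list median was -0.19 on the log2 scale, which is -0.32 relative to all tested genes. With median-of-ratios scaling, quantile normalization and the length and GC correction 20, 17 and 17 were lower, beside 21.6%, 19.9% and 21.2% of all tested genes. Under the same 3 scalings 2, 3 and 3 were higher, beside 20.1%, 21.4% and 20.0% of all tested genes. PRDX5, a peroxiredoxin found in mitochondria and peroxisomes among other places, fell from 871 ± 4.45 to 559 ± 28.4 TPM (-0.64, limma adjusted p = 7.47e-05). GLRX, cytosolic glutaredoxin, fell from 187 ± 2.14 to 119.6 ± 6.15 TPM (-0.64, adjusted p = 0.000119), and SLC3A2 by 0.60 on the log2 scale (adjusted p = 0.000103). GPX4, which reduces lipid peroxides with glutathione, rose from 694 ± 8.37 to 789.6 ± 29.0 TPM (0.19, adjusted p = 0.013), with 0.04 under median-of-ratios scaling (adjusted p = 0.62), 0.24 under quantile normalization (adjusted p = 0.00487) and 0.26 under the length and GC correction (adjusted p = 0.00205).

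**Figure D4:**
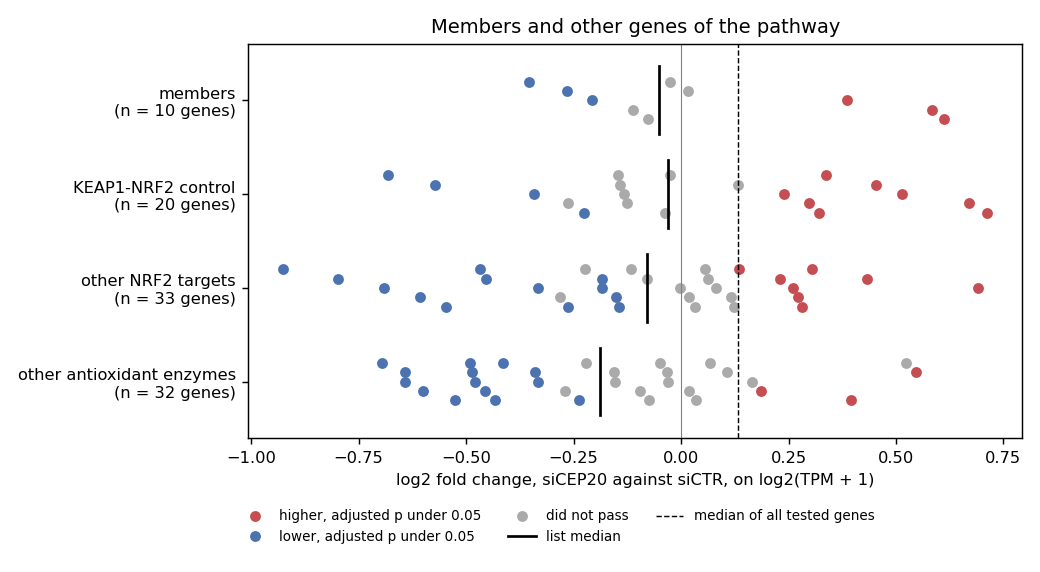
Log2 fold change (horizontal axis, siCEP20 against siCTR on log2(TPM + 1)) of the 10 members and of the tested genes of 3 other lists, 1 point per gene, placed at different heights only to keep points apart. Red and blue points are genes that passed as higher or as lower (adjusted p under 0.05), black bars are list medians (-0.05, -0.03, -0.08 and -0.19 from top to bottom), and the dashed line is the median of all tested genes, 0.13.

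The pattern of NFE2L2 over the 6 libraries was shared widely. The genes with the highest Pearson correlation of log2(TPM + 1) with NFE2L2 were PRPF3 (r = 0.9996), TMEM184B (r = 0.9993) and ERRFI1 (r = 0.9992), a description over 6 libraries that share 2 groups. Among all tested genes, 3604 (24.4%) had an r of at least 0.9 with it.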

How the data were processed

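RNA-seq of 6 A549 samples was analysed. The authors trimmed reads with fastp 0.20.1, aligned them to hg38 with HISAT2 2.1.0, quantified genes with StringTie 2.0, and deposited TPM values per Ensembl gene (per the labels' processing notes and methods). The annotation release is not given in the sources used here. TPM has neither counts nor depth, so the DESeq2 test of the methods was replaced by limma 3.58.1 (R 4.3.3, eBayes with a trend) on log2(TPM + 1) for the 14778 genes whose mean TPM was 1 or more, with Benjamini-Hochberg adjustment over all of them, without rescaling. Fold changes on this scale understate changes of low genes. Symbols, positions, lengths and GC content came from GENCODE release 44 (hg38), which held 60370 of 60624 IDs.

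Named were CEP20, the members, the ratio partners, the 3 smallest adjusted p and the 2 highest mean TPM in each list, and the 3 genes most correlated with NFE2L2. Other genes are marked. Members and lists were chosen with earlier results of these data known. The fit was tested on simulated data. Python 3.11.15, numpy 2.4.6, pandas 2.3.3 and matplotlib 3.10.9 were used. Alternatives were other pseudocounts, filters, scalings, variance and gene settings, a replicate block and each library left out.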

Additional observations from a re-analysis of the deposited data

How the results depend on the processing

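TPM holds no depth, and 3 samples per group limit the precision. Of the alternatives, 349 values kept direction and side of the threshold or, for counts, stayed within 1.5 times. Of the others, 28 counts or medians moved, 8 changes reversed direction, 10 lost a call and 5 gained a call. The filters, the trend, the gene setting and the replicate block leave each log2 fold change unaltered, so its direction could not differ there. With median-of-ratios scaling, log2 fold changes were -0.26 for KEAP1, -0.13 for GCLM, -0.23 for TXNRD1, 0.24 for SLC7A11 and -0.18 for HMOX1. The median of all members was -0.20, and 6 members were lower. KEAP1-NRF2 control then had 4 higher and 10 lower genes, other NRF2 targets 2 higher, and all tested genes 2963 higher and 3185 lower. With the length and GC correction log2 fold changes were -0.23 for KEAP1, -0.21 for GCLM, -0.27 for TXNRD1 and 0.12 for SLC7A11. The median of all members was -0.22, and 6 members were lower. Control genes were then 4 higher and 10 lower, and all genes 2952 higher and 3126 lower. With quantile normalization log2 fold changes were -0.0019 for NQO1, -0.06 for GCLM, 0.12 for TXNRD1 and 0.0069 for HMOX1. The median of all members was 0.0025, and 3 members were higher and 2 lower, beside 21.4% and 19.9% of all tested genes. Control genes were 5 higher and 8 lower, and 2938 of all genes were lower. These scalings left 0 members higher by over 1.5 times at an adjusted p under 0.05 (limma). A pseudocount of 0.1 gave 2, and limma gave 3 higher at an unadjusted p under 0.05 unscaled. The share of all tested genes was not counted for these. The cause of the differences between scalings was not tested.

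GCLC (-0.27) lost its call without a filter and without a trend, SLC7A11 (0.39) without a filter, and other NRF2 targets had 5 higher genes in both. With 1 library left out, GCLC ranged from -0.32 to -0.21, SLC7A11 from 0.32 to 0.49, GCLM from -0.066 to 0.073 and HMOX1 from -0.052 to 0.016. In these fits 0 to 2 members were higher with the fold threshold, for which the share of all tested genes was not counted. The count was 0 without siCEP20 replicate 3 or siCTR replicate 1, and 2 without siCEP20 replicate 1 or siCTR replicate 3. At the adjusted p alone, 5 to 7 control genes were higher (5 without siCEP20 replicate 2), beside 22.6% to 29.3% of all tested genes.

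The replicate numbers showed no clear pairing of the samples. Deviations of same-numbered samples had correlations of 0.157, -0.061 and -0.062, beside -0.121 to 0.17 for differently numbered samples. With deviations taken within groups of 3, such correlations cannot exclude a pairing. A replicate block kept 3 members higher and 3 lower, beside 28.9% and 12.6% of all tested genes. It changed no call of a member or of CEP20 (NFE2L2 0.61, limma adjusted p = 0.000885).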

Other observations

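The following genes of the lists were named after their values were seen. Enzymes that make NADPH, the reductant used by NQO1 and thioredoxin reductase, moved in different directions beside ME1. ME3, a mitochondrial malic enzyme, rose from 15.4 ± 0.82 to 23.0 ± 0.648 TPM (log2 fold change 0.55, adjusted p = 0.000883 from limma) and stayed higher with median-of-ratios scaling (0.40) and quantile normalization (0.41). IDH1, cytosolic isocitrate dehydrogenase, fell from 238 ± 21.5 to 136 ± 8.57 TPM (-0.80, adjusted p = 0.000187), with -0.95 and -0.83 under these scalings. In the pentose phosphate pathway, PGD (0.26, adjusted p = 0.00296) and TKT (0.27, adjusted p = 0.00195) rose with unscaled TPM. With median-of-ratios scaling they were at 0.11 (adjusted p = 0.0673) and 0.12 (adjusted p = 0.0684), with quantile normalization at 0.48 (adjusted p = 0.000584) and 0.48 (adjusted p = 0.000174), and with the length and GC correction at 0.14 (adjusted p = 0.0121) and 0.13 (adjusted p = 0.0192).

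The peroxiredoxins PRDX3 (-0.49) and PRDX6 (-0.49) and the cytosolic thioredoxin gene TXN (-0.26) were lower beside PRDX1 and PRDX5, while PRDX4 (-0.03, adjusted p = 0.659) and the barely expressed PRDX2 (0.11, adjusted p = 0.656) did not pass. TXN was at -0.10 (adjusted p = 0.101) with quantile normalization. The aldo-keto reductases AKR1C1 (-0.33), AKR1C2 (-0.55), AKR1C3 (-0.47) and AKR1B10 (-0.18) were each lower at an adjusted p under 0.05, and AKR1B10 was at -0.03 (adjusted p = 0.588) with quantile normalization. Reads of the near-identical AKR1C genes can be split between them, so their separate values are uncertain. ME2 varied widely within both groups, at 45.5, 18.3 and 46.0 TPM in siCTR and 73.5, 68.6 and 23.1 TPM in siCEP20 samples.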
